A study of Homo sapiens with 12 samples.

Results

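RD cells that carried PAX3-FKHR-ER were compared with RD cells that carried the empty vector pK1, neither given 4-hydroxytamoxifen (4-OHT). The comparison took the 3 arrays titled as PAX3-FKHR-ER without 4-OHT and the 3 titled as pK1 without 4-OHT, 6 of the 12 Affymetrix U133A arrays in the series, and read all 22215 probe sets that are not controls. RD is a human line from an embryonal rhabdomyosarcoma, a childhood tumour of cells on the skeletal muscle path. PAX3-FKHR-ER is the PAX3-FKHR fusion joined to a modified ligand-binding domain of the estrogen receptor, and pK1 is the vector without it. Both groups were transduced cells grown in DMEM with serum and antibiotics, and the other 6 arrays hold the same constructs after 30 nM 4-OHT for 24 h. Per the design text, each construct was studied in 3 populations. Transduced populations can differ from each other before any treatment, and the labels do not say whether a replicate number marks one population or one day, so p-values measure the spread between these samples only.

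PAX3-FKHR (PAX3-FOXO1) is the fusion transcription factor of alveolar rhabdomyosarcoma. It keeps the paired domain and homeodomain with which PAX3 binds DNA, and takes its activation domain from FKHR, now named FOXO1. Among the genes it is known to switch on in muscle precursors and rhabdomyosarcoma cells are the receptor FGFR4 and the muscle regulators MYOD1 and MYOG. Fused to an estrogen receptor domain, such a factor is held inactive by chaperones until 4-OHT binds. The comparison without 4-OHT therefore asks in what the cells with the fusion already differ from the vector cells before 4-OHT is given. Activity of the fusion without 4-OHT and differences between the transduced populations cannot be told apart in this design, and neither was tested.

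The cells read as muscle lineage, least clearly on vector replicate 2. Of 9 muscle lineage markers 7 lay above the signal filter, with a summed signal of 3245 to 5779 on the fusion arrays and 951 to 3989 on the vector arrays, and MYF5 and MYF6 were dim. Of 5 epithelial markers 2 passed, the keratins KRT18 and KRT8, with sums of 803 to 1019 against 718 to 1379 that KRT18 mostly made up. The other 3, EPCAM, CDH1 and KRT19, were near 0, at 0.859 to 13.7 on the 6 arrays. None of the 3 leukocyte markers on the array passed the filter. Of 6 fibroblast markers 4 passed, with sums of 480 to 1486 against 567 to 1064. Of the 4 neural markers on the array 3 passed. TUBB3, a tubulin first known from neurons, carried most of the neural sum of 3446 to 4740 against 2781 to 3068. NEFL, a neurofilament, read 30.6, 270 and 425 on fusion replicates 1, 2 and 3 and 18.3, 479 and 320 on the vector arrays. On vector replicate 2 NEFL read above every muscle lineage marker, of which CHRNA1 was the highest at 344. In bulk samples, fewer cells of a type and less RNA per cell cannot be told apart.

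The arrays of replicate 1 stood apart. The median over 24 probe sets for poly-A spike-in RNA was 4.45 and 7.41 on the replicate 1 arrays and 168 to 219.6 on the other 4. Log2 signals of the replicate 1 arrays correlated at 0.969 with each other, whatever the construct, and at 0.833 to 0.863 with the others. Median signals were 50.8 to 62.8 and the 3′ to 5′ ratio of GAPDH was 0.841 to 0.948 on these 6 arrays, each lowest on fusion replicate 1. Values below are given in the order of replicates 1, 2 and 3, and "fusion" and "vector" arrays are those so labelled.

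Probe sets for the parts of the construct followed the labels in part in replicates 2 and 3 and mostly not in replicate 1. The PAX3 probe set of highest signal read 17.6, 98.9 and 105 on the fusion arrays and 49.4, 41.5 and 30.6 on the vector arrays. FOXO1 read 142, 146 and 124 against 214, 52.1 and 36.1. An ESR1 probe set, for the estrogen receptor gene, chosen from 9 after its values were seen, read 7.50, 121 and 76.2 against 56.97, 4.16 and 12.7. These 3 were higher on the fusion array of replicates 2 and 3 and higher on the vector array in replicate 1. The brightest ESR1 probe set read 29.4, 66.7 and 30.6 against 63.2, 41.3 and 43.9 and the next 39.8, 55.9 and 28.1 against 58.6, 43.3 and 33.8, both higher on the fusion array in replicate 2 alone. The other ESR1 probe sets lay under the signal filter. All but the dimmest were higher on the fusion array in replicates 2 and 3 and lower in replicate 1. The brightest of these read 5.67, 53.1 and 68.3 against 22.7, 8.29 and 7.48. The dimmest read 1.71, 1.63 and 1.43 against 0.976, 1.35 and 1.88. The next PAX3 probe set, under the signal filter, read 8.52, 42.2 and 30.4 against 40.6, 45.8 and 24.6, higher on the fusion array in replicate 3 alone. A further FOXO1 probe set was higher on the fusion array in replicate 1 alone, at 313, 59.9 and 19.7 against 198, 61.5 and 48.4, and these probe sets can also read the cells' own transcripts. Signals are therefore given for each replicate, and several of the genes and all 19 lists also have their paired difference in replicates 2 and 3, without replicate 1.

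No probe set passed the test over all arrays. In limma 0 of 13329 probe sets (0%) reached a Benjamini-Hochberg adjusted p under 0.05, and the lowest adjusted p was 0.9999. At an unadjusted p under 0.05 there were 277 (2.08%), of which 144 (1.08%) were lower on the fusion arrays and the rest (0.998%) higher. With the replicate number as a block limma again called 0 (0%), with 981 (7.36%) at an unadjusted p under 0.05. In replicates 2 and 3 alone, paired by number, 1 probe set passed (0.0075%), that of FABP5, and 1299 (9.75%) had an unadjusted p under 0.05. The 3 fusion arrays lay wholly above the 3 vector arrays for 386 probe sets (2.9%) and wholly below them for 410 (3.08%), 796 in all (5.97%), and with every array set to the same median the split was 539 to 278. Counted with 1 probe set per gene, that was 213 of 8124 genes (2.62%) and 272 (3.35%). Over all ways of labelling 3 of 6 arrays, 10% of probe sets would be separate either way on average. The 5.97% seen is below that share, so a lack of overlap does not by itself mark a gene as differing between the constructs.

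How far the constructs differed depended on the replicate number. The fusion array differed from the same-numbered vector array by over 2-fold at 267 probe sets (2.003%) in replicate 1, at 1746 (13.1%) in replicate 2 and at 659 (4.94%) in replicate 3. Over 2-fold in both replicates 2 and 3, 55 were higher and 75 were lower, while 76 went opposite ways by that much. Of the 55, 21 were above 0 in replicate 1, and of the 75, 46 were below 0 there. Over all probe sets tested, the differences of replicates 2 and 3 correlated at r = 0.0589, those of 1 and 2 at -0.128 and those of 1 and 3 at 0.127, as a description across probe sets that are not independent.

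Genes below were taken by rule from the smallest p-values over all arrays, from the paired fit of replicates 2 and 3, and from the widest gaps between the groups that held both without and with 4-OHT. A few of each list were taken by smallest p over all arrays. Other genes named from the lists were chosen after their values were seen. All are given by their probe set of highest signal. Every fold difference is log2(signal + 16), fusion minus vector, with its standard error (SE), which understates the difference of dim genes.

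**Figure D1:**
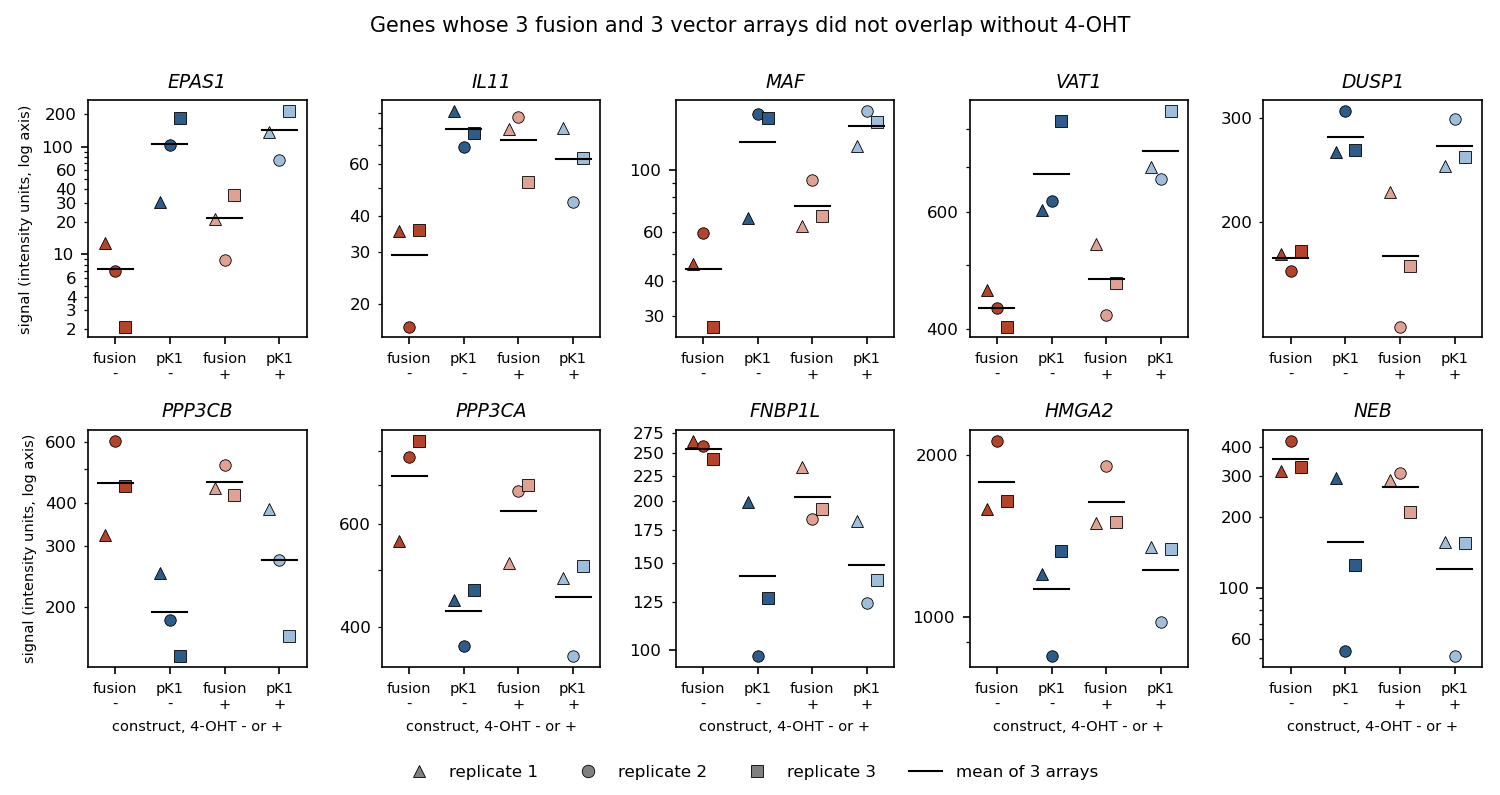
Signal (intensity units, log axis) of 10 genes on all 12 arrays, by construct without (-) and with (+) 4-OHT. Symbols mark the replicate and bars the mean of 3 arrays. Without 4-OHT no fusion array overlapped a vector array for any of the 10. EPAS1 read 12.8, 6.96 and 2.11 against 30.3, 103 and 185 there, and IL11 overlapped once 4-OHT was given.

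EPAS1, which encodes the hypoxia-inducible factor HIF-2α, had the smallest p of all. It read 12.8, 6.96 and 2.11 on the fusion arrays and 30.3, 103 and 185 on the vector arrays. Every vector array lay above every fusion array, the replicate 1 vector array least. The log2 difference was -2.18 ± 0.52 SE (unadjusted p = 0.00136 in limma, not passed after adjustment), and -2.92 ± 0.43 in replicates 2 and 3. With 4-OHT it read 21.1, 8.76 and 35.2 against 136, 75.1 and 214, again without overlap. The other EPAS1 probe set lay under the signal filter, at 3.92, 21.2 and 4.07 against 29.1, 15.03 and 27.1. In the hypoxia list 6 of 17 tested genes were above 0 and 11 below, EPAS1 among them, with a median of -0.06 against -0.02 over all genes. VEGFA, the vascular growth factor, read 119, 167 and 126 against 156, 161 and 211. EGLN3, an oxygen-sensing prolyl hydroxylase, read 31.7, 80.8 and 40.9 against 22.5, 29.8 and 28.5. It was the only other gene of the list without overlap, where 2.62% of all genes lay wholly above and 3.35% wholly below.

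Of the 3 catalytic subunits of calcineurin, the calcium-dependent phosphatase that sends NFAT factors into the nucleus, 2 read higher on the fusion arrays and 1 lower. PPP3CB, the beta isoform, read 322, 604 and 445 against 251, 183 and 144, with no overlap and the wider differences in replicates 2 and 3. Its log2 difference was 1.17 ± 0.32 SE (unadjusted p = 0.00385 in limma) and 1.58 ± 0.19 in replicates 2 and 3, and with 4-OHT it read 439.9, 514 and 420.0 against 383, 272 and 165. PPP3CA, the alpha isoform, read 560.2, 781 and 833 against 444, 370.1 and 462, a log2 difference of 0.73 ± 0.23 SE, and 0.94 ± 0.19 in replicates 2 and 3. A further PPP3CA probe set read 272, 571 and 228 against 515, 213 and 327, higher on the fusion array in replicate 2 alone. Another PPP3CA probe set read 542, 450.1 and 459 against 529, 318 and 283. The second PPP3CB probe set read 136, 199 and 186 against 131, 187 and 121. Both of the latter were higher on the fusion array of every replicate number. The groups overlapped for all of these further probe sets. PPP3CC, the gamma isoform, went the other way at 43.9, 34.8 and 37.1 against 56.6, 52.999 and 59.7, without overlap, while its second probe set had a log2 difference of 0.33. NFATC3, one of the NFAT factors, read 91.7, 122 and 108 against 87.6, 81.3 and 73.96. Of the 10 calcineurin and NFAT genes tested, 3 thus lay wholly above and 1 wholly below the vector arrays, against 2.62% and 3.35% of all genes, and 5 were on each side of 0, with a median of 0.11. RCAN1, a calcineurin inhibitor that NFAT induces, read 129.9, 110.2 and 159 against 102, 177 and 128 and overlapped.

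MAF, a basic leucine zipper transcription factor, read 46.1, 59.3 and 27.5 against 67.5, 158 and 153, a log2 difference of -1.20 ± 0.31 SE (unadjusted p = 0.00256 in limma) and -1.58 ± 0.26 in replicates 2 and 3. The gap was narrow in replicate 1 and wide in the others, and with 4-OHT the groups were again separate, at 62.97, 91.7 and 68.4 against 122, 162 and 148. A second MAF probe set read 71.3, 66.7 and 30.5 against 47.9, 129 and 128, lower on the fusion arrays in replicates 2 and 3 and not in 1. DUSP1, an immediate-early phosphatase that switches off MAP kinases, had arrays that lay close together within each group. It read 176, 165 and 178 against 263, 308 and 265 (log2 -0.64 ± 0.21 SE, and -0.69 ± 0.22 in replicates 2 and 3), and 224, 132 and 168 against 249, 299 and 258 with 4-OHT. VAT1, a vesicle amine transport protein, read 458, 431 and 404 against 604, 622 and 822 (log2 -0.63 ± 0.19 SE) and stayed separate with 4-OHT, at 538, 419.7 and 469.9 against 699.9, 673 and 849.7.

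The 250 bases before the transcription start are shown for EPAS1, MAF and DUSP1, lower on every fusion array, and for NEB, the sarcomere gene that was higher on every one, because the fusion binds DNA through 2 domains whose core motifs can be looked for there. The sequences are RefSeq's on GRCh38.p14, written 5′ to 3′ in the sense of the gene. Capitals mark GTCAC, the paired domain core, and ATTA, the homeodomain core, on either strand.
EPAS1: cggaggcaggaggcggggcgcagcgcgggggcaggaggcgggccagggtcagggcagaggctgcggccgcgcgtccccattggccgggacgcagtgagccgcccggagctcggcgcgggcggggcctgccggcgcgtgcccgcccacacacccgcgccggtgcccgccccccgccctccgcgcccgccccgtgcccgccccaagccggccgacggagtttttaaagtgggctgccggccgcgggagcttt
MAF: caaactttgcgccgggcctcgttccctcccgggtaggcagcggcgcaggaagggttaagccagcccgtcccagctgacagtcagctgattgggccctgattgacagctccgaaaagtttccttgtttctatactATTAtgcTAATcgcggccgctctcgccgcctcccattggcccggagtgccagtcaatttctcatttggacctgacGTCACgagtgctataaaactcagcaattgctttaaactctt
DUSP1: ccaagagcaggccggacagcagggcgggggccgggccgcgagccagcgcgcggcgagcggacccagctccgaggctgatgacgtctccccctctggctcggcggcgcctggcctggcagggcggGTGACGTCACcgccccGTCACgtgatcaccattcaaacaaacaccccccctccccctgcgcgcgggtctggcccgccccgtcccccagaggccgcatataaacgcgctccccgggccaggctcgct
NEB: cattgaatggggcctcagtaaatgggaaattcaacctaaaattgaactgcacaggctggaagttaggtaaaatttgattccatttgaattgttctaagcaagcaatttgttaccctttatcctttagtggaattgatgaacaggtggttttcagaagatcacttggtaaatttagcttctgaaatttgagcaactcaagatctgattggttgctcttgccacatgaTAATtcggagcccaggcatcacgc
EPAS1 lies at chr2:46297157-46297406 on the plus strand, and MAF at chr16:79600738-79600987, DUSP1 at chr5:172771196-172771445 and NEB at chr2:151734477-151734726 on the minus strand. EPAS1 held neither motif in a window of 80.8% G and C. MAF held 1 GTCAC and 2 ATTA, DUSP1 3 GTCAC and NEB 1 ATTA in a window of 39.2% G and C. The MAF match and 2 of the 3 in DUSP1 overlap a palindromic cyclic AMP response element, which 2.03% of all genes hold in this window. Among genes separated both without and with 4-OHT, 6 of the 10 named as higher on the fusion arrays matched the promoter table, and 3 of these held GTCAC and 2 ATTA. Of the 10 named as lower 7 matched, and 3 held GTCAC and 3 ATTA. Over all 27305 genes with a promoter sequence 42.3% held GTCAC and 52.7% ATTA, and such short matches are a description, not binding sites.

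IL11, an interleukin of the IL6 family, read 35.4, 16.7 and 35.9 against 91.3, 69.05 and 76.8, without overlap. The log2 difference was -1.09 ± 0.27 SE (unadjusted p = 0.00195 in limma) and -1.11 ± 0.35 in replicates 2 and 3. With 4-OHT the groups overlapped, at 79.5, 87.1 and 52.1 against 80.1, 44.7 and 63.1. The other IL11 probe set was under the filter and overlapped, at 46.5, 37.01 and 30.9 against 21.7, 21.9 and 35.5. It went the other way, higher on the fusion array in replicates 1 and 2, with a log2 difference of 0.36. JAK1, the kinase that this cytokine family signals through, read 343, 219 and 294 against 368, 377 and 364. It was even on the vector arrays and lower on each fusion array, least in replicate 1. Of 9 genes of the family tested, 8 were below 0, with a median of -0.29 and medians of -0.26, 0.08 and -0.48 by replicate number, so that replicate 2 went the other way. In that list 2 were wholly below the vector arrays, against 3.35% of all genes. SOCS3, an inhibitor induced by these cytokines, read 27.9, 50.6 and 26.2 against 36.7, 40.3 and 63.1 and overlapped.

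Sulfate donors and sulfotransferases, which decorate heparan and chondroitin chains at the cell surface, were read for 23 genes. PAPSS2, which makes the sulfate donor PAPS, read 53.9, 43.4 and 35.7 against 71.1, 163 and 90.2 without 4-OHT and 54.1, 29.1 and 23.4 against 62.7, 159 and 111 with it. CHST3, a chondroitin 6-sulfotransferase, read 26.4, 18.03 and 18.2 against 69.9, 48.7 and 69.8, a log2 difference of -1.09 ± 0.36 SE and -1.13 ± 0.31 in replicates 2 and 3. CHST10 read 186, 137 and 146 against 214, 248 and 215, and HS2ST1, a heparan sulfate 2-O-sulfotransferase, went the other way at 383, 338 and 345 against 305, 260.4 and 209. Of 23 genes tested in the list, 4 were wholly below and 1 wholly above the vector arrays, against 3.35% and 2.62% of all genes. The median was -0.22, with medians of 0.04, -0.09 and -0.44 by replicate number, and it was 0.05 where the dimmest 60% of probe sets were left out. The list's second PAPS synthetase, PAPSS1, read 559, 1238 and 1237 against 539.8, 725 and 876, higher on the fusion array of every replicate number.

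Further genes separated under both treatments were mostly of modest size. HMGA2, an architectural chromatin protein of embryonic and tumour cells, read 1585, 2127 and 1646 against 1205, 847 and 1329 (log2 0.67 ± 0.22 SE, and 0.81 ± 0.29 in replicates 2 and 3). BCAT1, a branched-chain amino acid transaminase, read 503, 590.4 and 569.7 against 401, 260.2 and 336, and KIF20B, a mitotic kinesin, 288, 194 and 232 against 168, 135 and 81.5. FNBP1L, a membrane-bending regulator of actin, read 265, 258 and 243 against 199.6, 97.3 and 128 (log2 0.84 ± 0.25 SE, and 1.06 ± 0.21 in replicates 2 and 3). All 4 had their lowest array in vector replicate 2 or 3. Of the 10 named as higher under both treatments, the smallest differences were those of PJA2, UBE2K, ANKRD17 and DSTNP2, the last a pseudogene whose probe set can read its parent gene, with log2 differences of 0.32 to 0.42. Among the lower ones, CD83, known as a dendritic cell surface protein, read 90.96, 40.4 and 25.7 against 109, 115 and 123. TNFAIP1, CRYBG3, GABBR2 and GPKOW had log2 differences of -0.49, -0.87, -0.69 and -0.33. In all, 113 probe sets (0.848%) kept the arrays of the constructs apart the same way without and with 4-OHT, 57 higher and 56 lower. With 4-OHT alone 706 (5.3%) were separate, and for 51 (0.383%) all 6 fusion arrays lay on one side of all 6 vector arrays.

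Other genes with small p over all arrays were separate without 4-OHT. CFAP70, a protein of motile cilia, read 65.6, 132.6 and 67.3 against 5.89, 9.08 and 15.004 (log2 1.96 ± 0.56 SE), but 65.5, 14.2 and 73.1 against 12.5, 23.02 and 113 with 4-OHT. Nucleolin (NCL), which acts in ribosome assembly, read 3681, 3569 and 3189 against 2562, 2389 and 2815, and WDR3, a factor of small ribosomal subunit assembly, 389, 371 and 475 against 291, 226 and 257. MED17, a subunit of the Mediator complex, read 322, 319.6 and 343 against 195, 217 and 147, and NDUFA5, of respiratory complex I, 369, 311 and 332 against 214, 208 and 203. ECPAS, a proteasome adaptor, and KLHL21, a substrate adaptor of the CUL3 ubiquitin ligase, had log2 differences of 0.71 and 0.95. On the lower side, RPS6KA1, the ribosomal S6 kinase RSK1, read 15.96, 16.9 and 2.54 against 47.8, 117 and 33.4, and PLS1, an actin-bundling plastin, 53.7, 11.4 and 29.9 against 90.2, 205 and 74.9. LRP10, a receptor of the LDL receptor family, read 108, 80.5 and 90.3 against 149, 184 and 219. BCAS4, ATOSB and KLHL25 had log2 differences of -1.41, -0.88 and -0.999. With 4-OHT the groups overlapped for KLHL21, RPS6KA1 and LRP10 too, at log2 differences of -0.21, -0.36 and -0.42. Whether the rest of these genes stayed separate with 4-OHT is not given here.

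FABP5, the epidermal fatty acid-binding protein, was the 1 gene that passed in replicates 2 and 3. It read 519, 3.39 and 2.05 on the fusion arrays and 423, 287 and 201 on the vector arrays. It was near 0 on fusion replicates 2 and 3 alone, and in replicate 1 it was high under both labels. The paired log2 difference of replicates 2 and 3 was -3.78 ± 0.27 SE (limma adjusted p = 0.0356), and without the block the adjusted p was 0.0242 in limma. With 4-OHT it read 642, 8.93 and 11.003 against 1007, 374 and 269, the same pattern. That limma fit has 3 residual degrees of freedom, and over 3 replicates the difference was -2.42 ± 1.39 SE, which did not pass. In alternatives added after seeing the data, the paired limma adjusted p was 0.134 with no filter on dim probe sets and 0.0505 with quantile normalization, so the call ended in both. Of the 8 tested genes that bind or use fatty acids and retinoids, 5 were below 0 with a median of -0.31. CPT1A, which admits fatty acids to mitochondria, read 63.8, 74.5 and 83.3 against 82.8, 184 and 162, lower in each replicate number with overlap between the groups.

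**Figure D2:**
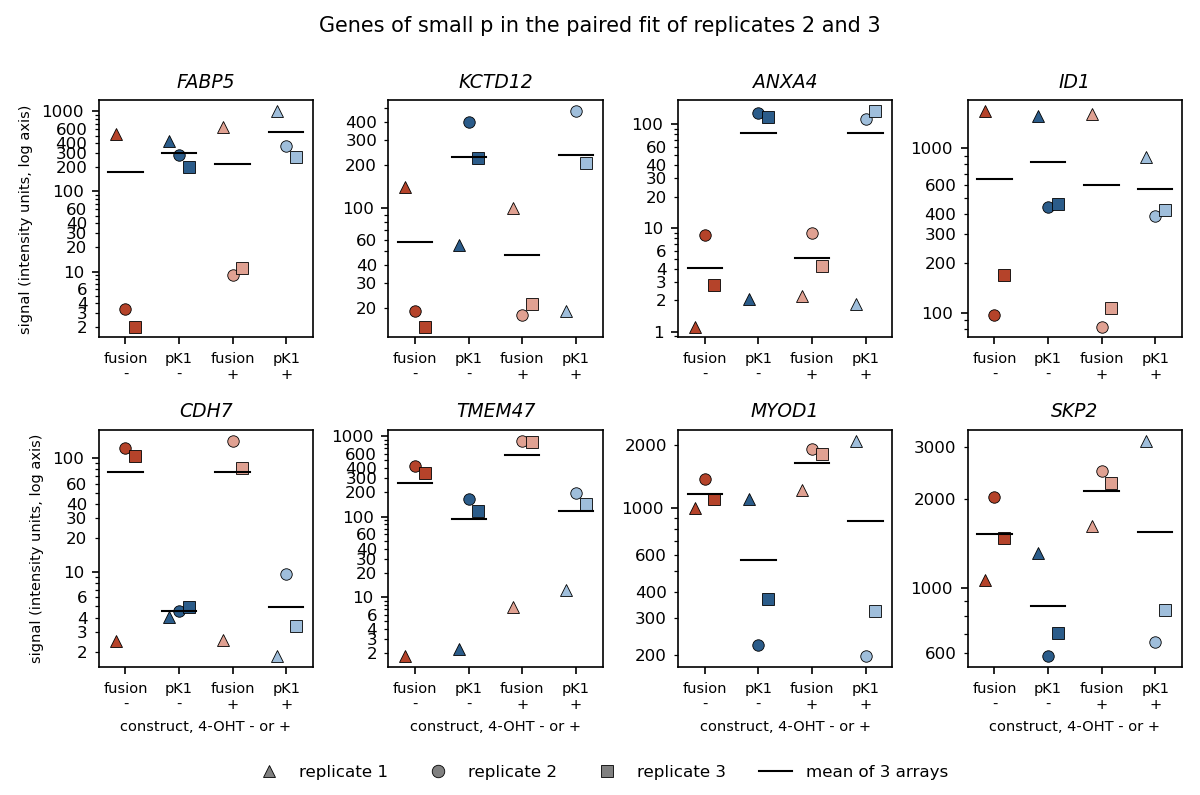
Signal (intensity units, log axis) of 8 genes on all 12 arrays, by construct without (-) and with (+) 4-OHT, with symbols for the replicate and bars for the mean of 3 arrays. Replicates 2 and 3 of the constructs lie apart in every panel, while the replicate 1 arrays of both constructs lie together without 4-OHT for most genes, as for ANXA4 at 1.12 and 2.06.

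None of the further genes of this pattern passed (limma adjusted p of 0.159 for ANXA4, KCTD12 and H2BC12L). ANXA4, a calcium-dependent membrane-binding annexin, read 1.12, 8.46 and 2.79 against 2.06, 128 and 117. Vector replicates 2 and 3 alone held a clear signal, and the paired log2 difference there was -2.69 ± 0.30 SE. KCTD12, an auxiliary subunit of GABA-B receptors, read 139.9, 18.95 and 14.8 against 55.1, 400.5 and 225, with the fusion array higher in replicate 1. Its second probe set followed, at 101, 6.82 and 23.02 against 59.7, 269.5 and 128. H2BC12L, a histone H2B gene with many near-identical copies, read 617, 68.1 and 107 against 555, 558 and 441. The SDR-family dehydrogenase DHRS7 read 136, 215 and 124 against 199, 519.5 and 552, lower on the fusion array in every replicate number.

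ID1 and ID2, which block E proteins and so restrain MYOD1, and SOX9, a regulator of cartilage and progenitor cells, were lower on fusion replicates 2 and 3. ID1 read 1680.1, 96.5 and 170.2 against 1571, 441 and 460.4, and ID2 read 484, 28.3 and 53.4 against 584, 210.4 and 180.1. SOX9 read 351, 38.2 and 67.2 against 438, 126 and 289. In replicate 1 all 3 were far brighter under both labels than in replicates 2 and 3 of the fusion. LAMP2, a lysosomal membrane protein, read 68.1, 176 and 189 against 99.8, 403 and 564, a second probe set followed with a log2 difference of -0.75, and one more went the other way at 0.31.

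Genes higher on fusion replicates 2 and 3 included cadherin-7 (CDH7), a cell adhesion molecule of neural crest. It read 2.48, 123 and 104 against 4.01, 4.59 and 4.99. Fusion replicates 2 and 3 alone held a clear signal, as they did with 4-OHT, at 2.56, 143 and 82.9 against 1.83, 9.65 and 3.36. TMEM47, a membrane protein of cell junctions, read 1.84, 421 and 349 against 2.27, 163 and 116, near 0 in replicate 1 of both constructs, and 7.61, 875 and 843 against 12.1, 193 and 144 with 4-OHT. The metalloprotease inhibitor RECK read 201, 650.0 and 581 against 332, 217 and 216, and the actin-associated palladin (PALLD) 126, 722 and 655 against 255, 315 and 314, with the vector array higher in replicate 1 for both. The laminin receptor integrin alpha-7 (ITGA7), found in muscle, read 376, 69.4 and 196 against 292, 8.53 and 27.2.

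Of 24 tested genes listed as known fusion targets, none passed and none kept the groups apart over all 3 replicates. Over all genes 2.62% lay wholly above and 3.35% wholly below, so none among 24 is near that share. In that list 20 were above 0, with a median of 0.39, but the medians by replicate number were -0.28, 0.997 and 0.36. FGFR4 read 509, 479 and 483 against 551, 89.8 and 190.5 (log2 1.13 ± 0.62 SE, and 1.75 ± 0.32 in replicates 2 and 3), and its second probe set 464, 486 and 491 against 615, 74.5 and 215. The fusion arrays were nearly level in all replicates, and the vector arrays were low in replicates 2 and 3 only. MYOD1 showed the same, at 1006, 1380.0 and 1111 against 1112, 222 and 367 (paired log2 difference in replicates 2 and 3 2.05 ± 0.29 SE). The F-box protein SKP2, which marks the cell cycle inhibitor p27 for decay, read 1065, 2022 and 1469 against 1309.9, 587 and 705, and all 3 of its probe sets were above 0. ADAM10, a membrane sheddase, read 339, 473 and 312 against 442, 195 and 131, and ABAT, which breaks down GABA, 438, 137 and 131 against 438, 15.3 and 49.96. MYCN, the N-myc oncogene, read 124, 39.5 and 47.4 against 169, 2.72 and 46.7, highest in replicate 1 of both constructs. As the list was drawn up from what is known of PAX3-FKHR, its sign is no independent evidence.

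The construct difference of sarcomere and mature muscle genes varied with the replicate number. Of 25 tested, 0 passed, 21 were above 0 and the median was 0.32, yet the medians by number were -0.26, 1.98 and -0.36. Vector replicate 2 was the lowest of the 6 arrays for 18 of the 25 genes. MYL11, a fast-muscle myosin light chain, read 139, 2503 and 1558 against 237, 67.6 and 2244, and CKM, muscle creatine kinase, 4.98, 398 and 166 against 6.84, 8.69 and 261. TNNI1, slow troponin I, read 30.8, 568 and 800.2 against 40.8, 3.59 and 414. The median signal of the list was 78.7, 255 and 166 on the fusion arrays and 93.2, 64.9 and 228 on the vector arrays. Without vector replicate 2 the median difference of the list was -0.04. The summed muscle lineage markers move with this, their lowest value of 951 being on that array too, and their part in the result was not tested.

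**Figure D3:**
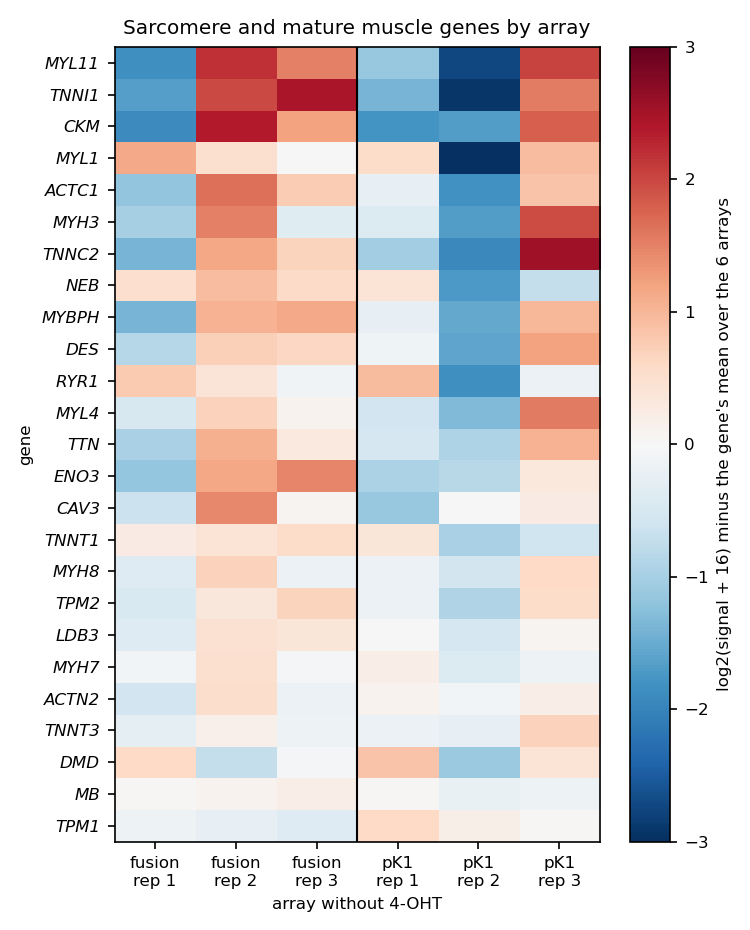
Heat map of log2(signal + 16) minus the gene's mean over the 6 arrays without 4-OHT, for the 25 tested sarcomere and muscle genes (rows, ordered by the difference in replicate 2) and the 6 arrays (columns). Vector replicate 2 is blue for most genes, vector replicate 3 is as red as the fusion arrays of replicates 2 and 3, and both replicate 1 arrays look alike.

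Within that list NEB, the giant thin-filament protein nebulin, was the gene wholly higher on the fusion arrays, as 2.62% of all genes were. It read 315, 426 and 330.1 against 294, 53.8 and 125 (log2 1.35 ± 0.50 SE, and 1.98 ± 0.48 in replicates 2 and 3), separated by little in replicate 1, and 288, 310.3 and 211 against 157, 50.9 and 155 with 4-OHT. TNNT1, slow troponin T, was low only on vector replicates 2 and 3, at 1413, 1581 and 1747 against 1540.3, 592 and 779. TPM1, a tropomyosin, was wholly lower on the fusion arrays by its brightest probe set, as 3.35% of all genes were, at 275, 255 and 231 against 479, 351 and 314. Another TPM1 probe set was lower with overlap, at a log2 difference of -0.40, but 2 others had log2 differences of 0.20 and 0.44. Of 9 neuromuscular junction genes tested, 8 were above 0 with a median of 0.55, and the medians by number were 0.02, 1.59 and 0.18. The acetylcholine receptor delta subunit CHRND read 532, 258 and 270.4 against 541, 2.61 and 185, and the neuregulin receptor ERBB3 255, 326 and 205 against 243, 70.7 and 117, whose second probe set went the other way.

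Of 13 myogenic regulators tested, 9 were above 0, the median was 0.41 and the medians by number were 0.09, 0.91 and 0.17. MYOG, which starts terminal differentiation, read 13.4, 298 and 172 against 32.8, 10.3 and 94.9, higher on the fusion array in replicates 2 and 3. TCF12, an E protein that partners with MYOD1, read 1292, 786 and 611 against 951, 297 and 369, and MSC, a repressor of myogenic factors, 496, 359.5 and 489.7 against 359, 127 and 391. Both were higher on the fusion array of every replicate number, and both overlapped between the groups.

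Of 18 antigen presentation genes tested none passed in limma, and 17 were below 0, where 4338 of all 8124 genes were. Their medians were -0.24, -0.46 and -0.61 by replicate number and -0.29 over all. In every replicate number 8 of the 18 were below 0, against 1191 of all 8124 genes, and 1 was wholly lower (3.35% of all genes). HLA-B read 124, 309 and 525 against 152, 1865 and 1286 and HLA-C 230.4, 329.6 and 613 against 363, 2372 and 1263, class I molecules whose probe sets can read each other's transcripts. Vector replicates 2 and 3 were the highest arrays and replicate 1 was the lowest of each construct. HLA-E, a class I molecule seen by natural killer cells, was the separate one, at 112, 172 and 109.5 against 178, 347 and 247. B2M, their shared light chain, was the gene above 0, at 1295, 2822 and 2858 against 1608, 1602 and 3529.

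Interferon response, chemokine and matrix genes read high on vector replicate 3, which was the highest of the 6 arrays for 17 of 23 interferon genes and 9 of 19 matrix remodelling genes. The chemokine CCL2 read 6.34, 5.15 and 4.75 against 7.40, 3.64 and 1027, and TFPI2, a secreted protease inhibitor, 2.67, 23.98 and 3.22 against 4.53, 41.7 and 1868. Vector replicate 3 alone held these signals, as it also did with 4-OHT, at 701 and 1825. CTSB, the lysosomal protease cathepsin B, read 382, 210.4 and 337 against 545, 453 and 1619, wholly higher on the vector arrays by this probe set. Its 3 others overlapped, with log2 differences of -0.70, -0.75 and -0.01, and with 4-OHT this one overlapped too, at 435, 283 and 233 against 336, 387 and 1578. TIMP1, a metalloprotease inhibitor, read 903, 754 and 1011 against 941, 1527 and 1551, and the groups overlapped, fusion replicate 3 lying above vector replicate 1. Of the interferon genes 16 were below 0, with medians of -0.13, 0.37 and -0.90 by number. Over all replicates that list's median was -0.24, but it was 0.35 without vector replicate 3 and 0.03 without fusion replicate 1. IRF9, which completes the interferon-activated factor ISGF3, was the separate gene, at 98.1, 64.5 and 91.9 against 109, 132 and 203. It was 1 of 23, where 3.35% of all genes were wholly lower. Of 9 chemokine and inflammation genes 8 were below 0, with medians of -0.25, 0.31 and -1.15 by number. Of the matrix remodelling genes 12 were below 0 with a median of -0.17, which turned to 0.05 without vector replicate 3.

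**Figure D4:**
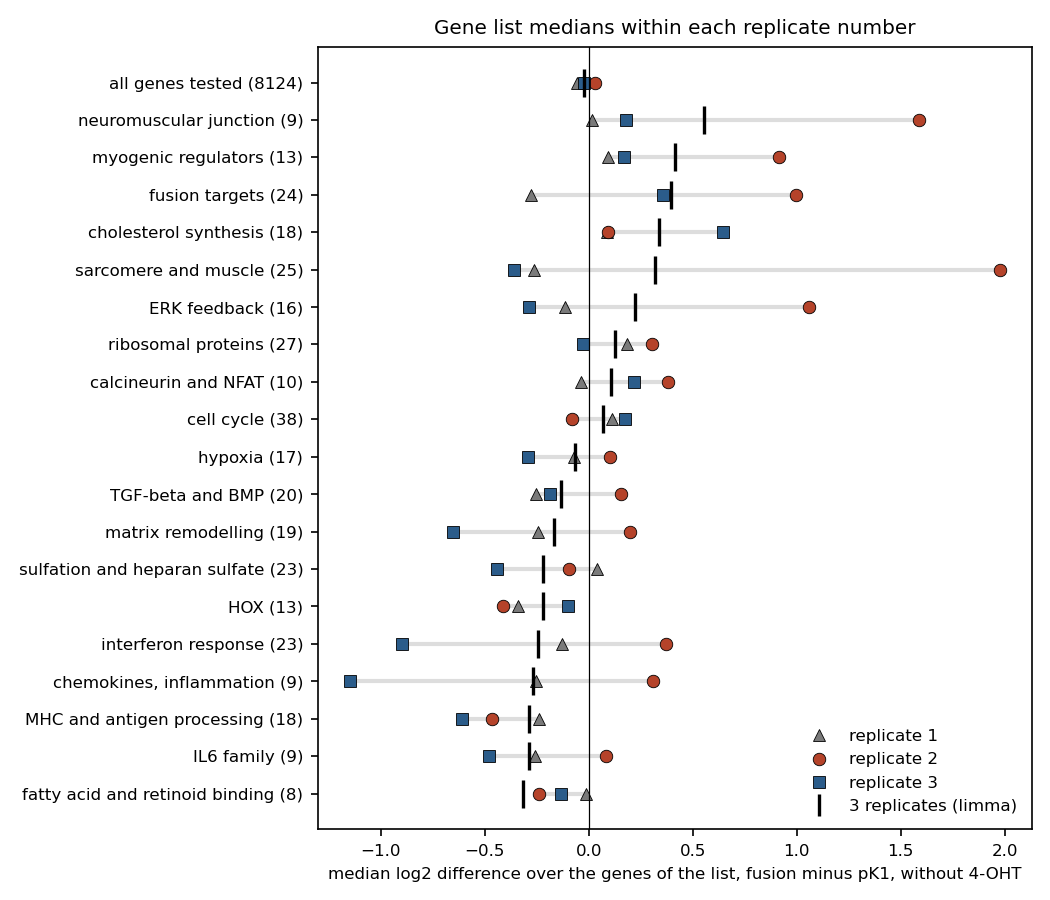
Median log2 difference (fusion minus vector, without 4-OHT) of 19 gene lists and of all genes, with the number of tested genes in brackets. Symbols give the median within each replicate number and the upright bar that of the fit to all arrays. Muscle, neuromuscular and ERK feedback lists reach furthest right in replicate 2, chemokine and interferon lists furthest left in replicate 3, and all genes together lie near 0.

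In the paired fit of replicates 2 and 3, without replicate 1, the medians of all 19 lists had the sign they had over 3 replicates. Both fits use the arrays of replicates 2 and 3, so this likeness is largely built in. In several lists the medians of replicates 2 and 3 had opposite signs. Under quantile normalization the paired median of ribosomal proteins was -0.03. The paired medians of muscle and fusion target lists were 0.64 for sarcomere genes, 1.06 for neuromuscular junction genes, 0.31 for myogenic regulators and 0.75 for known fusion targets. They were -0.42 for antigen presentation, -0.15 for interferon, -0.36 for chemokine and -0.09 for matrix remodelling genes. The IL6 family had -0.33, the sulfation list -0.26, fatty acid and retinoid binding -0.22, hypoxia -0.08 and calcineurin and NFAT 0.21. The ERK feedback list had 0.31, cholesterol synthesis 0.47, ribosomal proteins 0.10, HOX genes -0.11, TGF-beta and BMP -0.05 and cell cycle genes 0.06.

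Feedback genes of the ERK pathway were also lowest on vector replicate 2, in 11 of 16. Of the 16 tested, 11 were above 0 with a median of 0.22, which was -0.19 without that array, and medians by number were -0.11, 1.06 and -0.29. DUSP4 read 271, 273 and 233 against 318, 9.88 and 284, lowest on that array alone, and DUSP6, a phosphatase specific for ERK, 1361, 3594 and 1747 against 1228, 1102 and 1939.7. Cholesterol synthesis genes had a median of 0.34 over 18 tested, with 13 above 0 and medians of 0.09, 0.09 and 0.65. None was separate, where 2.62% of all genes lay wholly above and 3.35% wholly below. INSIG1, which holds the sterol sensor in the endoplasmic reticulum, read 193, 409.9 and 606 against 181, 540.1 and 182, and IDI1, an isopentenyl diphosphate isomerase, 418, 709 and 864 against 392, 659 and 371, both low on vector replicate 3 against fusion replicate 3. Of 27 ribosomal protein genes 25 were above 0, with a median of only 0.13, which was -0.02 under quantile normalization. Of 13 HOX genes 8 were below 0 with a median of -0.22, and HOXB6 read 13.1, 30.1 and 56.3 against 20.2, 518 and 65.6, high on vector replicate 2 alone. The median of 20 TGF-beta and BMP genes was -0.13 and that of 38 cell cycle genes 0.07, and each changed sign without fusion replicate 1, to 0.06 and -0.03. Cyclin D2 (CCND2) read 2316, 2531 and 1689 against 2755, 352 and 1067, lowest on vector replicate 2.

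The construct differences were set beside those after 4-OHT in the same replicate number, which share no array. Across probe sets, the 2 differences correlated at r = 0.15 in replicate 1, 0.72 in replicate 2 and 0.63 in replicate 3, as a description. Of the 1746 probe sets over 2-fold without 4-OHT in replicate 2, 960 (55.0%) were over 2-fold the same way with it, which is 45.0% of the list with 4-OHT. In replicate 3 it was 320 of 659 (48.6%, and 37.0% of the other list) and in replicate 1 it was 36 of 267 (13.5% and 9.28%). The test of the difference between the 2 construct differences called 0 of 13329 probe sets (0%) in limma after adjustment, and 39 (0.293%) at an unadjusted p under 0.05. With 4-OHT the constructs gave 0 (0%) over 3 replicates and 21 (0.158%) in replicates 2 and 3 with the block.

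**Figure D5:**
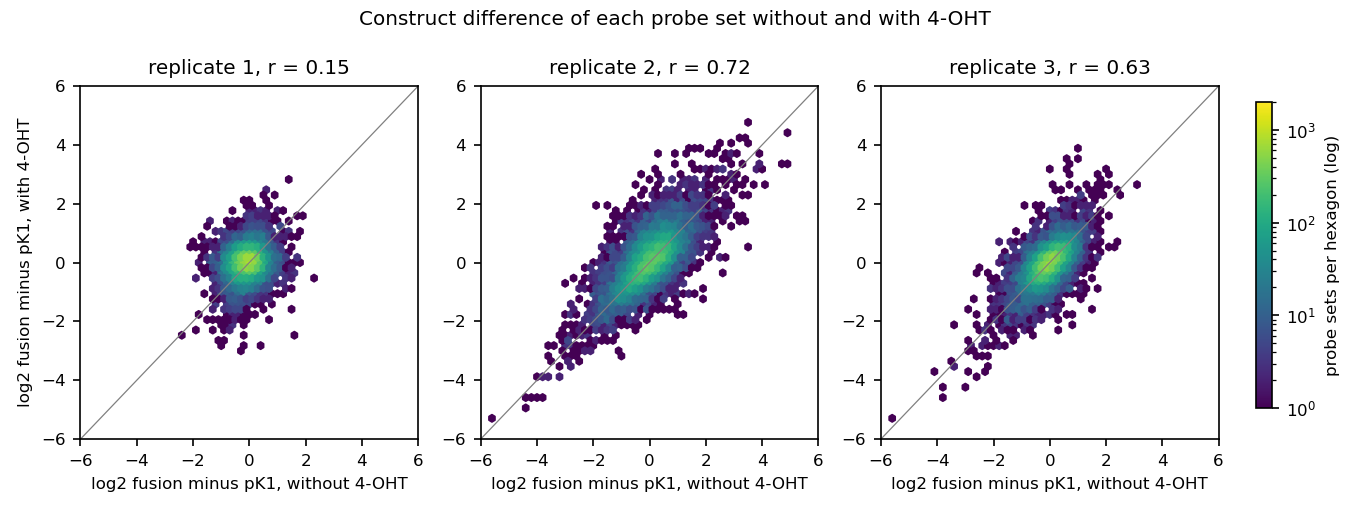
Construct difference (log2, fusion minus pK1) of 13329 probe sets without 4-OHT (horizontal) and with 4-OHT (vertical), in 1 panel per replicate number, with colour for the number of probe sets per hexagon on a log scale and the line of equality. The cloud follows the line in replicates 2 and 3 (r = 0.72 and 0.63) and is narrow and round in replicate 1 (r = 0.15).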

How the data were processed

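RNA from 12 samples was read on Affymetrix U133A arrays. The deposited table held linear probe set intensity, which the authors made with GCOS and MAS5 according to the labels, per the submitters' processing notes (versions and scaling target not given in the sources used here). Of 22283 probe sets, 68 controls were left out. Of the rest, 19065 had 1 gene symbol in the array annotation, 1043 several and 2107 none, and only the first were named.

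Signals were taken as log2(signal + 16), without further scaling, and probe sets in the dimmest 40% by mean over 12 arrays (under 36.7) were left out, which left 13329. Group means of all 12 arrays, which share 1 estimate of the spread, were fitted with limma 3.58.1 in R 4.3.3 (lmFit, eBayes with trend, two-sided, Benjamini-Hochberg over all probe sets). The code was tested on simulated data. Deviations from group means correlated between same-numbered arrays at 0.69, 0.15 and 0.46, so the block on replicate number was run as well. With replicate 1 apart, this does not show that the numbers pair the samples. Members and lists were chosen with earlier results of these data known. The 19 lists described, with 1 probe set per gene, came from general knowledge.

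Genes were named by rule: the 10 each way of smallest p over all arrays, the 10 each way of smallest p in replicates 2 and 3 with the block, the 10 each way of widest gap without and with 4-OHT, and a few of each list. Other genes named from lists were chosen after their values were seen. The number of arrays limits the precision. Figures used matplotlib 3.10.9 and Python 3.11.15.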

Additional observations from a re-analysis of the deposited data

How the results depend on the processing

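Of 20 alternatives, 14 were other settings and 6 left out 1 array each. The 2 fits named below as added, and the separation of 2 arrays against 2, were chosen after seeing the data. Without 4-OHT the count of called probe sets stayed at 0 except in replicates 2 and 3, where it was 1 without and 1 with the replicate block. The added fits, that paired fit again, gave 0 with no filter on dim probe sets and 0 with quantile normalization, so the FABP5 call depends on both. With 4-OHT the counts were 13 without and 21 with the block in replicates 2 and 3, and, with the block, 4 with no filter and 17 with quantile normalization. The cause was not tested. The difference of the construct differences gave 0 in all of them.

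Probe sets wholly higher on the fusion arrays numbered 386, and 660 with no filter, which adds dim probe sets. Those wholly lower numbered 410, and 816 with no filter and 235 where the dimmest 60% were left out, which leaves fewer to test. The separation of 2 arrays against 2, in replicates 2 and 3, held for 2501 and 2201 of 13329. Chance alone separates 2 against 2 more often than 3 against 3, so these counts do not show a wider construct difference. With equal medians the split was 539 to 278, and under quantile normalization 434 to 381.

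Of 2093 values of 106 named genes, 3 changed sign, each when 1 array was left out. PALLD ranged from -0.0020 without PAX3-FKHR-ER replicate 2 to 1.19, RYR1, the calcium release channel of muscle, from -0.0435 without pK1 replicate 2 to 1.36, and TMEM47 from -0.12 without pK1 replicate 1 to 2.40. The median of the hypoxia list was 0.03 without pK1 replicate 3, of the HOX list 0.04 without PAX3-FKHR-ER replicate 1, and of the TGF-beta list 0.06 without pK1 replicate 3. The replicate block on all 12 arrays changed no call. Signal over background was not assessed, as the table holds no detection calls.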

Other observations

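Some genes differed by over 2-fold in the same direction in all 3 replicate numbers without 4-OHT, 2 higher and 1 lower among 13329 probe sets tested. LGR5, a receptor for R-spondins that marks stem cells, read 225, 499 and 590.2 on the fusion arrays of replicates 1, 2 and 3 and 101, 229 and 255 on the vector arrays. Its groups overlapped, since the replicate 1 arrays were lower under both labels. An ID2 probe set read 70.6, 25.2 and 26.5 against 209.6, 94.1 and 112, and CFAP70 was the other gene that was higher. Among 20 tested genes of Notch and Wnt signalling the median log2 difference was 0.24, and 8 were above 0 in every replicate number, against 924 of all 8124 genes. No gene of that list kept the groups apart, where 2.62% of all genes lay wholly above and 3.35% wholly below.

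The arrays of the constructs lay apart in opposite directions without and with 4-OHT for 4 probe sets. TLN1, which links integrins to actin, read 72.1, 73.4 and 78.8 against 112, 113 and 95.6 without 4-OHT, and 94.2, 121 and 94.5 against 88.1, 67.0 and 55.3 with it. RNGTT, the messenger RNA capping enzyme, read 57.4, 50.5 and 48.0 against 76.4, 85.7 and 59.7 without it and 66.8, 85.2 and 55.8 against 43.5, 46.9 and 41.4 with it. SOX21 and 1 probe set without a gene name made up the rest. No probe set passed in the test of that difference in limma, at 0 of 13329 and 39 with an unadjusted p under 0.05.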
